A study of Mus musculus with 2 samples.

Results

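The miR-181 family of the mouse is encoded by 6 genes in 3 genomic pairs, and these 6 genes were described in small RNA libraries of embryonic kidney. Members were chosen by symbol alone, as the rows of Mir181a-1, Mir181b-1, Mir181a-2, Mir181b-2, Mir181c and Mir181d, and all 6 were found among the 1973 annotated miRNA genes counted. The tissue was kidney of B6NCrl mice at embryonic day 14.5, and 2 biological replicates made up the only group. For either replicate 2 kidneys were taken, on different days, and the material is described as of both sexes. The labels name a single pup for each sample but also give 1 donor identifier for both, so how many embryos each sample holds is not settled, and every SD measures only the spread between these 2 samples. Libraries covered RNA shorter than 30 nucleotides. There was no treatment and no second condition, so the comparisons are between the 3 gene pairs, between the members of a pair, between copies with 1 mature sequence, and between the replicates.

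A miRNA is cut from a hairpin precursor, and either arm of the hairpin (5p or 3p) can be loaded into Argonaute, where the seed, bases 2 to 8 of the mature strand, pairs with target mRNAs. Genes whose mature strands share a seed are placed in 1 family because their predicted targets overlap. The miR-181 family is known for setting the sensitivity of T cell receptor signalling in developing lymphocytes, and for roles in vascular endothelium and in the brain. In the kidney of the embryo, ureteric bud epithelium, nephron progenitors, stroma and vessels are all present, and counts from whole tissue do not say which of these cells made a miRNA. In such bulk samples, fewer cells of a type and less RNA per cell cannot be told apart.

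All 6 genes share the 5p seed, and in the RefSeq miRNA table for GRCm38 (the mm10 assembly) no other listed gene carries it. The 5p strands are shown 5′ to 3′ with the seed in capitals, since they define the family and show which genes cannot be told apart.
miR-181a-5p (Mir181a-1 and Mir181a-2): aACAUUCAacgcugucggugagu
miR-181b-5p (Mir181b-1 and Mir181b-2): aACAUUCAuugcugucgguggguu
miR-181c-5p (Mir181c): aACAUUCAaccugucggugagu
miR-181d-5p (Mir181d): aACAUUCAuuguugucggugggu
The 6 genes thus give 4 distinct 5p sequences. Mir181a-1 and Mir181a-2 make an identical miR-181a-5p of 23 bases, and Mir181b-1 and Mir181b-2 make an identical miR-181b-5p of 24 bases. Counted from 1 at the 5′ end, miR-181b-5p and miR-181d-5p differ by C12U over 23 bases. miR-181a-5p and miR-181b-5p differ by A9U, C10U and A21G over the same length. miR-181c-5p is 1 base shorter than miR-181a-5p, and their edit distance is 1. By sequence, a and c form 1 close pair and b and d the other, while each genomic cluster holds 1 member of either kind.

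The 3p strands are all different, with 6 sequences from 6 genes, and are shown because they are the part of the copied hairpins that can be assigned to a single gene. Capitals again mark the seed.
miR-181a-1-3p (Mir181a-1): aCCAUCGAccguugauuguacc
miR-181a-2-3p (Mir181a-2): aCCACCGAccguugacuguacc
miR-181c-3p (Mir181c): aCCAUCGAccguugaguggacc
miR-181b-1-3p (Mir181b-1): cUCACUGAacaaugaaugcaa
miR-181b-2-3p (Mir181b-2): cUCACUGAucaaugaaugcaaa
miR-181d-3p (Mir181d): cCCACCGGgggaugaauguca
The 3p strands of Mir181a-1 and Mir181c share a seed and differ by U16G and U19G. Those of Mir181b-1 and Mir181b-2 share another seed and differ by A9U over 21 bases. The 3p strands of Mir181a-1 and Mir181a-2 differ by U5C and U16C, the first of which falls in the seed. None of the 6 sequences was found in another miRNA gene of the table.

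The sequence downstream of the shared 5p strand shows where a read could first be assigned to 1 copy. The 30 bases from the first base of the mature strand are given, with the first base that differs between the copies in capitals.
Mir181a-1: aacauucaacgcugucggugaguuuggAau
Mir181a-2: aacauucaacgcugucggugaguuuggGau
Mir181b-1: aacauucauugcugucgguggguuGaacug
Mir181b-2: aacauucauugcugucgguggguuUgaaug
The 2 miR-181a hairpins remain identical up to base 27 and part at base 28, beyond the end of the mature strand at base 23. The 2 miR-181b hairpins part at base 25, the base directly after the mature strand, where Mir181b-1 has G and Mir181b-2 has U. Upstream of the mature strand the copies are identical for 1 further base in the miR-181a pair and 2 in the miR-181b pair. A read that aligned at more than 1 place went into a separate tally and into no gene's count. A read of exactly the annotated miR-181a-5p or miR-181b-5p therefore fits 2 genes. With exact matching, the counts of the 4 copied genes can hold only reads that reach past these limits or come from the rest of the hairpin; how many mismatches the alignment allowed is not given in the sources used here. The tables give 1 count per hairpin, with no division by arm or by read length.

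The 3 pairs lie on 3 chromosomes. Mir181a-1 (ENSMUSG00000065565.1; mm10 chr1:137966455-137966541, plus strand) and Mir181b-1 (ENSMUSG00000065458.1; chr1:137966639-137966718, plus strand) are 97 bases apart, within an intron of the noncoding transcript Gm4258 and overlapping the exon of the lincRNA A430106G13Rik on the same strand. Mir181a-2 (ENSMUSG00000065423.1; chr2:38852735-38852810, plus strand) and Mir181b-2 (ENSMUSG00000065578.1; chr2:38853830-38853918, plus strand) are 1019 bases apart, opposite to introns of Nr6a1, a nuclear receptor gene transcribed from the minus strand. Mir181b-2 also lies opposite to the exon of Gm44144, a gene model of the class TEC. Mir181d (ENSMUSG00000076338.1; chr8:84178716-84178787, minus strand) and Mir181c (ENSMUSG00000065483.1; chr8:84178873-84178961, minus strand) are 85 bases apart, in an intron of a transcript of Nanos3 on their own strand. Nanos3 encodes an RNA-binding protein of germ cells. The A430106G13Rik transcript holds both mature strands of Mir181b-1 and neither of Mir181a-1. How reads that fit both annotations were counted is not given in the sources used here. Positions and overlaps are from GENCODE release M21.

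Depth was 5202588 own-strand counts in replicate 1 and 3683978 in replicate 2, so that 3 counts stand for 0.577 and 0.814 CPM. CPM is a gene's own-strand count per 1000000 own-strand counts of all miRNA genes. Reads mapping to several places numbered 2960222 (28.3% of reads) and 1862424 (27.5%), or 46.0 and 41.6 reads for each count of the miR-181 family. How many of them are miR-181a-5p or miR-181b-5p is not given by the tables. The replicates differed by more than sampling noise over 344 degrees of freedom (chi-square 46611) and were kept as 2 samples. As a check of the tissue label, 5 miRNA genes of the Hox clusters, which mark the position of a tissue along the body axis (Mir10a, Mir10b, Mir196a-1, Mir196a-2 and Mir196b; Mir615 was not in the list), together held 244757 and 247352 CPM, and the 5 epithelial miR-200 genes 26799 and 23488 CPM. Genes of kidney tubules (3 of 3 detected) held 352 and 489 CPM together, and erythroid genes (3 of 3 detected) 161 and 77.6 CPM. Neural genes (3 of 8 with a row detected) held 591 and 472 CPM, of which Mir132 made up 442 and 356 CPM. Mir9-2 (1 and 0 counts), Mir9-3 (6 and 7 counts) and the Mir124a genes (0 counts in both replicates) were not detected. Endothelial Mir126a held 45180 and 47759 CPM.

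All 6 miR-181 genes reached 10 counts in both replicates, the minimum for calling a gene detected, which 17.5% of all 1973 genes met. Together they held 64322 counts in replicate 1, which is 1.24% of own-strand counts (95% exact Clopper-Pearson interval 1.23 to 1.25). In replicate 2 they held 44804 counts, or 1.22% (1.21 to 1.23), for a mean of 1.23% ± 0.0143 (SD, n = 2). The intervals of the replicates overlapped only at their edges, with a lower limit of 1.2269 in replicate 1 and an upper limit of 1.2274 in replicate 2. Such an overlap does not show that the shares are equal. The median of the members' mean levels was 1392 CPM, against 114 CPM for all 345 detected genes. Intervals here and below cover counting error only, and reads of PCR products without molecular identifiers are not independent molecules. The members have no count on the strand opposite to the gene in either replicate, and a count of 0 allows each of them up to 0.577 CPM in the first library and 0.814 in the other.

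The chromosome 8 pair, whose 5p strands have no second copy among the annotated genes searched, had the highest counts. Copies outside annotated transcripts were not searched. Mir181c had 25373 counts in replicate 1 and 17583 in replicate 2, or 4877 and 4773 CPM (mean 4825 ± 73.7, SD, n = 2), and took place 38 of all miRNA genes. Mir181d, its neighbour, had 21756 and 16526 counts, or 4182 and 4486 CPM (mean 4334 ± 215), at place 42. Both replicates put Mir181c above Mir181d, and the ranges of the 2 genes did not overlap. On the log2(CPM + 1) scale the difference was 0.22 in replicate 1 (95% exact interval of the ratio of counts 0.20 to 0.25) and 0.09 in replicate 2 (0.06 to 0.12). Its mean was 0.16 ± 0.09. Divided by the length of the hairpin, 89 bases for Mir181c and 72 for Mir181d, the difference turned to -0.15. The order of these 2 genes therefore depends on whether counts are scaled by length. Elsewhere counts are given unscaled, and the tables do not record the length of the reads.

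The chromosome 1 pair was split widely. Mir181a-1 had 7877 and 5922 counts, or 1514 and 1607 CPM (mean 1561 ± 66.1, place 71), and came next after Mir181c and Mir181d. Mir181b-1, 97 bases downstream, had only 176 and 85 counts, or 33.8 and 23.1 CPM (mean 28.5 ± 7.61, place 234), the lowest of the family. Mir181a-1 exceeded Mir181b-1 by 5.44 on the log2 scale in replicate 1 (5.27 to 5.71) and by 6.06 in replicate 2 (5.81 to 6.45). The mean difference was 5.75 ± 0.44, or 53.9-fold. Both are copied genes, and reads of exactly the shared 5p strand are left out of the count of each. The A430106G13Rik transcript holds both strands of Mir181b-1 and neither of Mir181a-1, and the part of this in the difference was not tested.

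On chromosome 2 the order of the a and b members was the other way round. Mir181b-2 had 7142 and 3955 counts, or 1373 and 1074 CPM (mean 1223 ± 212, place 79). Mir181a-2 had 1998 and 733 counts, or 384 and 199 CPM (mean 292 ± 131, place 127), the widest relative spread of the family at a coefficient of variation of 44.9%. The difference Mir181a-2 minus Mir181b-2 was -1.84 in replicate 1 (-1.91 to -1.77) and -2.43 in replicate 2 (-2.55 to -2.32). The mean was -2.13 ± 0.42. The b member was thus the higher of the pair on chromosome 2 and the lower on chromosome 1, in both replicates. An exact permutation test over 2 samples cannot go below p = 0.5, so no p is given for differences between genes.

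**Figure D1:**
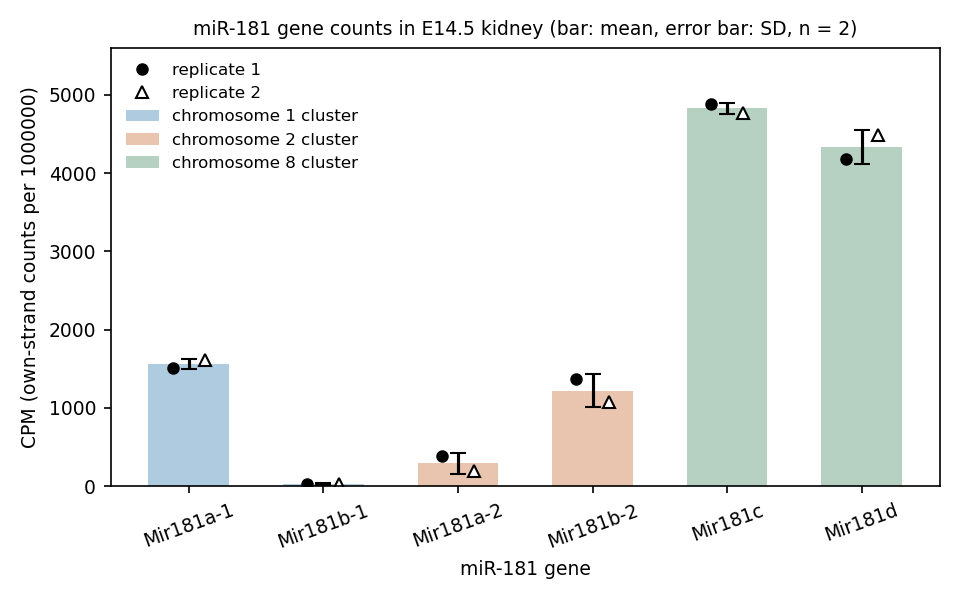
Own-strand CPM (linear axis from 0) of the 6 miR-181 genes, grouped by genomic cluster; bars show the mean, error bars the SD of 2 replicates, filled circles replicate 1 and open triangles replicate 2. Mir181c and Mir181d stand between 4182 and 4877 CPM, Mir181a-1 and Mir181b-2 between 1074 and 1607 CPM, and Mir181b-1 at 33.8 and 23.1 CPM is barely above the axis.

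Set in order, the members ran from Mir181c through Mir181d, Mir181a-1, Mir181b-2 and Mir181a-2 to Mir181b-1, and no 2 neighbours in that order overlapped between replicates. The steps were uneven: Mir181c was 1.11-fold above Mir181d, Mir181a-1 1.28-fold above Mir181b-2, and Mir181a-2 10.2-fold above Mir181b-1, by mean CPM. The genes next to a member in the whole table are by construction the nearest to it in mean CPM. Overlap with them therefore says nothing particular about the family. Of the genes directly above and below each member, Mir18 at 4912 and 4889 CPM was the only one whose replicates did not overlap those of the member, Mir181c. Mir182, of the miR-183 cluster of sensory epithelia, was directly below Mir181c at 4941 and 4643 CPM, and Mir92-1 directly above Mir181d at 4988 and 4169 CPM. Mir296 stood below Mir181d at a mean of 4043 ± 768 CPM. Mir181a-1 lay between Mir487b and Mir431 of the imprinted Dlk1-Dio3 region (1616 ± 159 and 1515 ± 177 CPM), and Mir181b-2 between Mirlet7f-2 and Mir301 (1230 ± 149 and 1202 ± 75.6 CPM). Mir181a-2 was flanked by Mir154 and Mir222 (303 ± 16.2 and 288 ± 13.4 CPM), and Mir181b-1 by Mir702 and Mir770 (28.6 ± 4.38 and 27.4 ± 5.03 CPM).

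**Figure D2:**
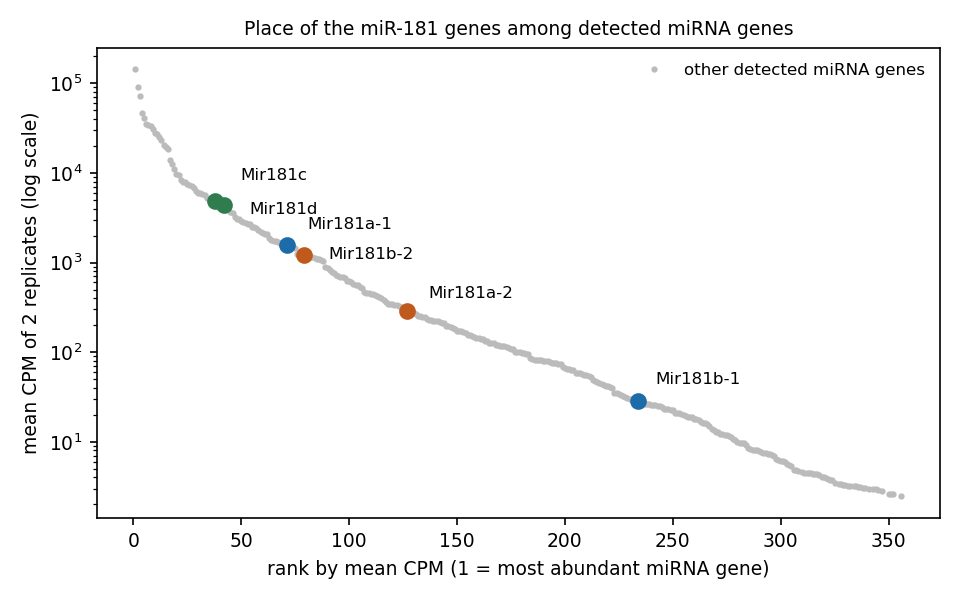
Mean CPM (log axis) of each detected miRNA gene against its place in the order of abundance, with the 6 miR-181 genes in the colour of their cluster (blue chromosome 1, orange chromosome 2, green chromosome 8) and all other genes in grey. The members spread from place 38 (Mir181c) to place 234 (Mir181b-1), and 4 of the 6 are among the 100 most abundant genes.

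Summed over both members, the chromosome 8 pair held 9059 CPM in replicate 1 and 9259 CPM in replicate 2, which was 73.3% and 76.1% of the family's counts (mean 74.7% ± 2.02, SD, n = 2). The chromosome 1 pair held 1548 and 1631 CPM, 13.0% ± 0.628 of the family, nearly all of it from Mir181a-1. The chromosome 2 pair held 1757 and 1273 CPM, 12.3% ± 2.65. Chromosome 8 exceeded chromosome 1 by 2.53 ± 0.03 on the log2 scale (5.76-fold) and chromosome 2 by 2.61 ± 0.35 (6.12-fold), and its lowest replicate lay above the highest of either other pair. These ratios set genes with no copied strand against genes whose exact 5p reads are not counted. They are differences in assigned reads, and the part of the multiply mapped reads in them was not tested.

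The chromosome 1 and chromosome 2 pairs could not be ordered. Chromosome 1 minus chromosome 2 was -0.18 in replicate 1 (95% exact interval -0.23 to -0.14) and 0.36 in replicate 2 (0.30 to 0.41), for a mean of 0.09 ± 0.38. Between the replicates the chromosome 2 sum was 484 CPM lower in replicate 2, and the chromosome 1 sum 82.7 CPM higher.

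Copies that encode 1 mature 5p strand differed widely in their counts. Mir181b-2 exceeded Mir181b-1 by 5.30 and 5.48 on the log2 scale in the 2 replicates (mean 5.39 ± 0.13, or 42.0-fold). Both encode the same miR-181b-5p, and reads of exactly that strand are counted for neither gene. Mir181b-1 also lies with both its strands in the A430106G13Rik transcript, and the part of this in the difference was not tested. Mir181a-1 exceeded Mir181a-2 by 1.98 and 3.01 (mean 2.49 ± 0.73, or 5.63-fold). The higher copy of miR-181a was thus on chromosome 1 and the higher copy of miR-181b on chromosome 2. The alignments printed above show the point at which each pair parts: base 28 for miR-181a, and base 25, with G in Mir181b-1 and U in Mir181b-2, for miR-181b. Whether the counts of a gene came from its 5p or its 3p strand is not recorded in the tables. Among close relatives by sequence, Mir181c exceeded Mir181a-1 by 1.63 ± 0.08 and Mir181d exceeded Mir181b-2 by 1.83 ± 0.32. Each of these sets a gene with no copied strand against the higher of 2 copies, whose exact 5p reads are not counted. They are therefore differences in assigned reads and do not compare the levels of the mature strands.

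For comparison, 21 pairs of miRNA genes that share a mature strand with each other and with no further gene, and of which at least 1 gene was detected, had a median difference of 2.23 on the log2 scale, from 0.40 (Mirlet7c-1 over Mirlet7c-2) to 5.74 (Mir194-2 over Mir194-1). In each pair the higher gene is given first, so the sign is fixed and only the size is described. The miR-181b pair took place 3 of 21, after the miR-194 and miR-196a pairs, and the miR-181a pair place 9. With a pseudocount of 1 CPM, the level of the higher gene limits how large a difference can be. That level ran from 7.23 CPM (Mir129-1) to 4578 CPM (Mir92-1), with Mir181b-2 at 1223 CPM. The places therefore depend in part on abundance. Mir194-1, in the pair at place 1, was itself not detected (3 and 4 counts). The SD of the miR-181a difference, 0.73, was the widest of the 21. Genes with 1 of their mature strands copied, the class of the 4 miR-181 genes on chromosomes 1 and 2, were detected in 38 of 53 cases, with a median of 69.4 CPM over those detected and 28.5 CPM over all 53. Genes whose every mature strand was copied were detected in 7 of 34 cases (median of those detected 65.0 CPM, and 0 CPM over all 34). Genes with no copied strand, among them Mir181c and Mir181d, were detected in 270 of 829 (131 CPM over those detected, and 0.481 CPM over all 829). A further 1057 genes had no matching entry in the RefSeq miRNA table, and 30 of them were detected (median 156 CPM).

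**Figure D3:**
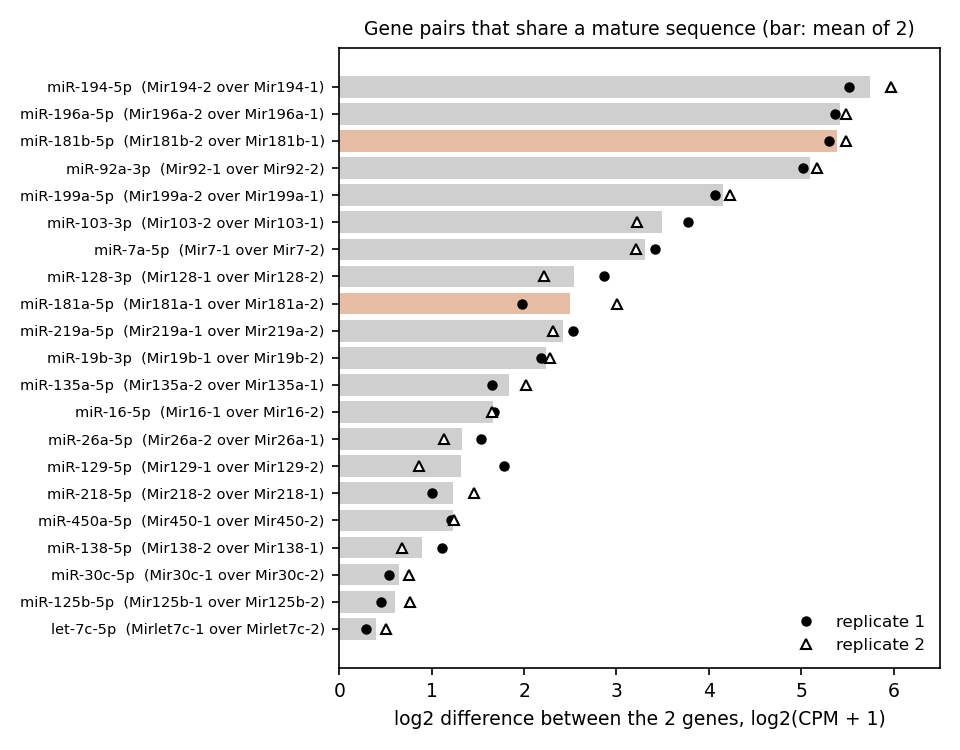
Log2 difference between the 2 genes of each pair that shares a mature strand, on the log2(CPM + 1) scale; bars show the mean, filled circles replicate 1 and open triangles replicate 2, and the miR-181 pairs are in orange. The miR-181b pair, at 5.39, is at place 3 from the top, and the miR-181a pair, at 2.49, has its replicates at 1.98 and 3.01.

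To see how steady each member was, its counts in the 2 libraries were set against their TMM-scaled totals in an exact binomial test (two-sided, Benjamini-Hochberg adjustment over all 345 detected genes). This compares 2 libraries with counting error alone, not conditions. On the adjusted p alone (threshold 0.05), 5 of 6 members passed, against 53.6% of all detected genes: 3 were lower in replicate 2 (27.0% of all detected genes were) and 2 higher (26.7%). When the log2 ratio had also to be 1 or more in either direction, 0 of 6 passed, against 3.19% of detected genes. In edgeR's exact test, run with a coefficient of variation assumed to be 0.2, 0 of the 6 members passed as well, and only 0.580% of all detected genes did, so this count says nothing particular about the members. The members' median absolute log2 ratio was 0.23, and that of all detected genes 0.24.

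Mir181a-2 differed most, with 1998 counts in replicate 1 and 733 in replicate 2. Its log2 ratio of replicate 2 over replicate 1 was -0.94 (95% exact interval -1.07 to -0.82, adjusted p = 3.79e-55 in the exact binomial test), just short of the minimum size of 1. Of the 345 detected genes, 15 (4.35%) had a ratio of at least this size. With edgeR's exact test at the assumed spread, its adjusted p was 0.935. Mir181b-2 of the same cluster was also lower in replicate 2, at -0.35 (-0.41 to -0.29). The summed chromosome 2 pair had a ratio of -0.46 (-0.51 to -0.41).

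The other clusters moved less. On chromosome 1, Mir181a-1 was higher in replicate 2, at 0.09 (0.04 to 0.14), and Mir181b-1 was lower, at -0.55 (-0.94 to -0.16, adjusted p = 0.00816 in the exact binomial test), with intervals that did not overlap. Mir181b-1 rests on 176 and 85 counts. On chromosome 8, Mir181d was higher at 0.11 (0.08 to 0.14), while Mir181c, at -0.03 (-0.05 to 0.00245, adjusted p = 0.124 in the exact binomial test), did not pass. Of the 4 copied members, 3 passed as lower and Mir181a-1 passed as higher. In the list of other copied or paired families, 8 of 32 detected genes passed as lower and 8 as higher. Of all detected genes, 27.0% passed as lower and 26.7% as higher, and a link with copying was not tested. Between the same libraries the summed erythroid genes went from 161 to 77.6 CPM and the summed tubule genes from 352 to 489 CPM, with Mir192 and Mir194-2 higher in replicate 2 and Mir204 lower (157 and 136 CPM). The widest ratio of any detected gene was that of Mir122, the main miRNA of hepatocytes, named here after its values were seen, at 56.3 and 1074 CPM. The part of tissue makeup in the members' ratios was not tested.

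**Figure D4:**
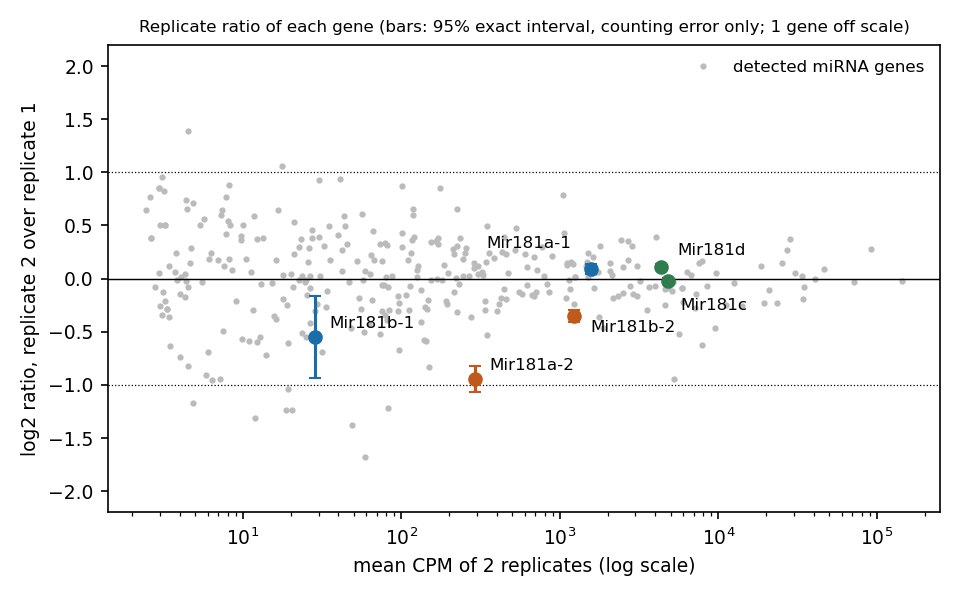
Log2 ratio of replicate 2 over replicate 1 against mean CPM (log axis) for the detected miRNA genes in grey, 1 of which (Mir122) is off the scale, and the 6 miR-181 genes in the colour of their cluster with 95% exact intervals for counting error; dotted lines mark ratios of -1 and 1. Mir181a-2 lies just inside the lower line at -0.94, and Mir181c, Mir181d and Mir181a-1 lie between -0.03 and 0.11.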

How the data were processed

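The authors deposited raw counts of reads for each library, 1 row per miRNA gene and not normalized, in 3 columns: both strands, the strand of the gene (used here) and the opposite strand. Per the deposited file descriptions, reads were aligned to mm10 and counted on GENCODE M4; aligner and counter: not given in the sources used here. The first 4 rows of each table are tallies that name no gene and stayed out of totals: unmapped reads (16.8% and 14.1%), reads mapping to several places (28.3% and 27.5%), reads on no feature, and ambiguous reads.

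Symbols came from GENCODE M21 by identifier without version (1894 of 1973 matched), and mature sequences from the RefSeq miRNA table for GRCm38.p6, matched by position to 916 genes and to all 6 members. Hairpins came from GENCODE M21 transcripts. CPM used own-strand totals, log values a pseudocount of 1 CPM, and detection a minimum of 10 counts in each replicate. The ratio of replicates was tested with scipy on TMM-scaled totals, and the calculation was tested on simulated data. With 1 group, the quasi-likelihood test of edgeR has no contrast and was left out. The members, lists and tests were chosen with earlier results of these data known. Named genes are the members, the genes next to them in abundance, and marker and copied-family lists (leukocyte, endothelial, neural, erythroid, epithelial, kidney tubule, Hox axis); the list of copied or paired families and the leukocyte list are given under the closing observations. Alternatives were count minimums, pseudocounts, strands, hairpin length, totals without the most abundant gene, scaling by DESeq2, edgeR's exact test, and each replicate alone. Python 3.11.15 ran scipy 1.17.1 and pandas 2.3.3, and R 4.3.3 ran DESeq2 1.42.0 and edgeR 4.0.16.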

Additional observations from a re-analysis of the deposited data

How the results depend on the processing

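The 6 members were detected under each count minimum tried and with both strands counted. With Mir10a, the most abundant gene, left out of the total, Mir181a-1 rose to 1823 CPM, Mir181c to 5637, Mir181d to 5063 and the family's share to 1.43%; with both strands counted, Mir181c was at 4735 CPM and the share at 1.20%, since the totals differ. Counts divided by hairpin length gave 2.64 for chromosome 8 over chromosome 1 and turned Mir181c minus Mir181d to -0.15, which follows from the lengths. Leaving out 1 replicate turned the chromosome 1 minus chromosome 2 difference, from -0.18 without replicate 2 to 0.36 without replicate 1; the other differences between clusters and within pairs kept their sign. The number of genes differing between replicates fell from 11 to 2 with edgeR's exact test at an assumed coefficient of variation of 0.2, and those past the threshold at any size from 185 to 2. Under it the ratios of Mir181a-1 (0.092), Mir181b-1 (-0.55), Mir181a-2 (-0.94), Mir181b-2 (-0.35) and Mir181d (0.11) no longer passed, since this test adds the assumed spread to counting error. With DESeq2 size factors Mir181c passed at -0.060 (adjusted p = 6.05e-05 in the exact binomial test). No other ratio of a member changed its side of the threshold or its sign. No paired analysis was possible because the design has 1 group, so its replicate numbers pair no samples. The alternative count minimums and strands for genes with copied strands were chosen after seeing the data. Depth limits Mir181b-1 most, at 176 and 85 counts.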

Other observations

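Other miRNA families made of copies or paired clusters were counted from a list of 36 genes, of which 35 had a row and 32 were detected. The list's median over its 35 genes with a row, detected or not, was 75.5 CPM. The miR-181 genes, all detected, had a median of 1392 CPM. The median of 114 CPM for all detected genes leaves out undetected genes, so it is not a like measure for the list. It was led by Mir23b at 23449 ± 2660 CPM and Mir23a at 8416 ± 328 CPM, miRNAs of 2 paralogous clusters, and by Mir92-1 at 4578 ± 579 CPM and Mir15a at 3212 ± 45.2 CPM. At the other end stood Mir29b-2 (10 and 2 counts), Mir194-1 (3 and 4 counts) and Mir29b-1 (1 and 2 counts), each with a copied mature strand. In the exact binomial test between the replicates, 8 of the list's 32 detected genes passed as lower and 8 as higher in replicate 2, near the 27.0% and 26.7% of all detected genes, and the median log2 ratio of its detected genes was 0.04.

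The miR-181 family is best known in lymphocytes, and a list of leukocyte miRNAs, not limited to lymphocytes, was counted beside it. The leukocyte list (Mir142b, Mir223, Mir155, Mir150, Mir146 and Mir146b, with no row for Mir142) had 4 of 6 genes detected and summed to 736 and 735 CPM in the 2 replicates. By mean own-strand CPM, Mir155 (336) and Mir223 (267) led the list, and Mir150 had 13.0. Mir142b had no own-strand count, but 1684 and 1151 counts on the opposite strand (324 and 312 per 1000000 own-strand counts), with which the list's sums were 1060 and 1047. The summed miR-181 genes stood at 12364 and 12162 CPM in the same libraries. The counts do not assign the miR-181 reads to a cell type.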
